A study of Mus musculus with 6 samples.

Results

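Enzymes with which the liver handles amino acids and makes urea were measured in epididymal white adipose tissue (WAT) after timed sleep restriction (TSR). The members were 9 genes chosen by name. Bhmt, Mat1a and Gnmt belong to methionine metabolism, Tat and Hpd to tyrosine breakdown, and Cps1, Otc, Arg1 and Ass1 to the urea cycle. Every probe set annotated to exactly 1 of these symbols was used, which gave 10 of the 22690 probe sets on the array, for 8 of the 9 genes. Otc had 3 probe sets and the other 7 genes had 1 each. The only probe set that holds Ass1 is annotated to Gm5424 as well, so Ass1 has no value of its own here. The TSR group consisted of 3 arrays from mice that were handled gently to keep them awake for 6 h a day on 5 consecutive days. The control group consisted of 3 arrays from mice without TSR. Both groups were wild-type C57BL/6 mice, young adult males by the study's methods, and tissue was taken at ZT18 (Zeitgeber time 18, the middle of the dark phase), in the TSR group on the last day of treatment. Whether an array held 1 animal or several is not stated, and p-values here cover only the spread among these samples, which may be technical. Since WAT was measured in bulk, fewer cells of a type and less RNA per cell cannot be told apart.

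These enzymes are best known from hepatocytes, the main cells of the liver. Methionine is activated there to S-adenosylmethionine, the general methyl donor of the cell, and the homocysteine left after methyl transfer is either turned back into methionine or broken down. Tyrosine is degraded to fumarate and acetoacetate by a chain of enzymes that starts with its transamination. Ammonia from amino acid breakdown is bound in the mitochondria of hepatocytes and leaves the cell as urea, a cycle that WAT is not known for.

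Upstream sequences were available for 6 of the 9 genes in the RefSeq table (GRCm38.p6). Those of Bhmt (chr13:93637759-93638008, minus strand) and Tat (chr8:109990186-109990435, plus strand) are shown, as members of different pathways with large differences between the groups. Each holds the 250 bases before a transcription start of the gene, and capitals mark matches, on either strand, to the nuclear receptor core AGGTCA or to the CCAAT box:
Bhmt: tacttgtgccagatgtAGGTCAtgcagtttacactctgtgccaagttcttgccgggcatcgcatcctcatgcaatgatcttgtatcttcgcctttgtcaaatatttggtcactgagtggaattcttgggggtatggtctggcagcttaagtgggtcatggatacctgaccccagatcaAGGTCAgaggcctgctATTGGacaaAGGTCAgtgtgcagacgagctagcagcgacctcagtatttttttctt
Tat: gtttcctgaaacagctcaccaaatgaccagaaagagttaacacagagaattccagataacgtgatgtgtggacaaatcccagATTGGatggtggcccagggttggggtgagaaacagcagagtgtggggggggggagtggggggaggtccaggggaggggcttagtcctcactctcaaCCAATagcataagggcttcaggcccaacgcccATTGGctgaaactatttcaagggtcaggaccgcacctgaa
The Bhmt window held AGGTCA 3 times and CCAAT once, and the Tat window held CCAAT 3 times. Among the 6 genes, CCAAT occurred in 3 (Bhmt, Gnmt and Tat) and AGGTCA in 2 (Bhmt and Gnmt). Over windows of the same length before 27025 genes, CCAAT was found in 34.5% and AGGTCA in 13.8%. The TATA motif TATAAA (13.0% of all genes), the HNF1 core GTTAAT (6.52%) and the glucocorticoid receptor core TGTTCT (16.2%) were not matched in any of the 6 windows. None of the 5 motifs contains another. These are matches of letters, not binding sites.

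The deposited values are MAS5 signals on a linear scale, which the authors scaled to the same target on each array. Signals have no fixed zero, and the 25th percentile of an array, between 20.8 and 25.2 on the 6 arrays, was taken as that array's low-signal limit, under which a probe set gives only a bound. TSR and control were compared with limma on log2 signals over 14707 probe sets, after leaving out the 35% with the lowest mean over all 6 arrays (log2 signal below 5.45). Of these probe sets, 25.6% were called higher and 21.0% lower after TSR at an adjusted p of 0.05. The split moved with the scaling of the arrays. As deposited, 3768 probe sets were higher and 3082 lower, after quantile normalization 3099 were higher (21.1%) and 3380 lower (23.0%), and after median centring 2452 were higher (16.7%) and 4363 lower (29.7%). The median log2 fold change of the tested probe sets was 0.04 as deposited and -0.07 after median centring. Arrays of the same group had r of 0.991 to 0.993 and arrays of different groups 0.962 to 0.965. These correlations run over probe sets, and probe sets are no replicates. The adipocyte markers Fabp4, Adipoq and Lpl were bright in both groups, at mean signals of 16824, 13080.2 and 13209 after TSR and 22601, 18072 and 17310.3 in control, so the labelled tissue is matched by its markers.

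In methionine metabolism, all 3 members were higher after TSR. Bhmt encodes the enzyme that remethylates homocysteine with betaine as the methyl donor. It had signals of 792, 821 and 790 in the TSR arrays (mean 801 ± 17.2, SD, n = 3), against 15.7, 30.1 and 16.2 in the control arrays (mean 20.7 ± 8.17, SD, n = 3). The TSR arrays lay close together and far above all control arrays. The log2 fold change was 5.34 (standard error 0.23, adjusted p = 7.0e-07 from limma). Since 2 of its 3 control signals were under the low-signal limit, the difference was also computed with such signals raised to that limit, and was then 5.00.

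Gnmt encodes glycine N-methyltransferase, which uses up surplus S-adenosylmethionine in the hepatocyte cytosol. Its signals were 305, 399 and 418 after TSR and 3.30, 7.02 and 2.64 in control. Its control signals were all under the low-signal limit, and set against that limit Gnmt was at least 16.7-fold higher after TSR, the largest such bound among the members. Mat1a encodes the S-adenosylmethionine synthetase of the adult liver. It gave 120, 116 and 120 after TSR and 13.5, 14.2 and 1.78 in control, which made it at least 5.35-fold higher by the same rule. The 3 TSR signals of Mat1a differed by a CV of 1.88%, the smallest among the members. Both probe sets had a mean below the filter and were not in the main test. In limma without the filter they rose, with adjusted p = 3.3e-05 for Gnmt and 0.0061 for Mat1a over 22626 probe sets, of which 16.0% were called higher. The Mat1a call was lost in the equal-variance test named in the methods, run on log2 signals (adjusted p = 0.063, exact permutation p = 0.1), and kept on linear signals (adjusted p = 0.0017, the same exact p).

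In tyrosine breakdown, both members were higher after TSR. Tat encodes tyrosine aminotransferase, which starts the pathway and is a classical glucocorticoid-induced gene of the liver. It gave 96.3, 94.2 and 89.8 after TSR and 1.86, 4.69 and 2.57 in control. With all 3 control signals under the low-signal limit, Tat was at least 4.22-fold higher after TSR (adjusted p = 0.00017 from limma without the filter). Hpd encodes 4-hydroxyphenylpyruvate dioxygenase, which makes homogentisate in the next step. It was the only member with every control signal above the low-signal limit. The signals were 412, 424 and 394 in the TSR arrays (mean 410.2 ± 14.9, SD, n = 3), against 49.4, 83.1 and 52.7 in the control arrays (mean 61.8 ± 18.6, SD, n = 3). Its log2 fold change was 2.77 (standard error 0.18, adjusted p = 6.9e-06 from limma), with a 95% interval of 2.36 to 3.19. The lowest TSR array exceeded the highest control array by a factor of 4.75.

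In the urea cycle, Cps1, Otc and Arg1 were higher after TSR. Cps1 encodes carbamoyl phosphate synthetase, the mitochondrial enzyme that binds ammonia and commits it to the cycle. It gave 227, 280 and 270.5 after TSR (mean 259 ± 28.4, SD, n = 3) and 16.5, 27.6 and 12.5 in control (mean 18.9 ± 7.81, SD, n = 3). The log2 fold change was 3.85 (standard error 0.27, adjusted p = 9.96e-06 from limma), and 3.41 with low signals raised to the limit.

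Otc encodes ornithine transcarbamylase, which makes citrulline from carbamoyl phosphate in the next step, and its 3 probe sets did not all behave alike. The brightest had signals of 62.6, 54.6 and 72.5 after TSR and 1.80, 11.4 and 4.54 in control, and was at least 2.84-fold higher. Another gave 34.4, 32.2 and 55.5 after TSR and 1, 5.01 and 7.04 in control, and was at least 1.78-fold higher. Without TSR replicate 3, the highest of that group in both, these bounds were 2.64 and 1.51. In limma without the filter the adjusted p was 0.0042 for the brightest and 0.010 for the other, whose call was lost in the equal-variance test on log2 signals (adjusted p = 0.069, exact permutation p = 0.1) and kept on linear signals (adjusted p = 0.045, the same exact p). The remaining probe set stayed under the low-signal limit on all 6 arrays, between 1 and 1.95 after TSR and between 1.10 and 6.78 in control, so it gave no fold.

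Arg1 encodes arginase, which splits arginine into urea and ornithine and closes the cycle. Arg1 is also a known product of alternatively activated macrophages. It gave 139, 157 and 178 after TSR (mean 158 ± 19.5, SD, n = 3) and 13.4, 39.5 and 17.1 in control (mean 23.3 ± 14.1, SD, n = 3). The log2 fold change was 2.92 (standard error 0.36, adjusted p = 0.00024 from limma), and 2.52 with low signals raised to the limit. The lowest TSR signal was 3.52 times the highest control signal, which was above the low-signal limit.

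**Figure D1:**
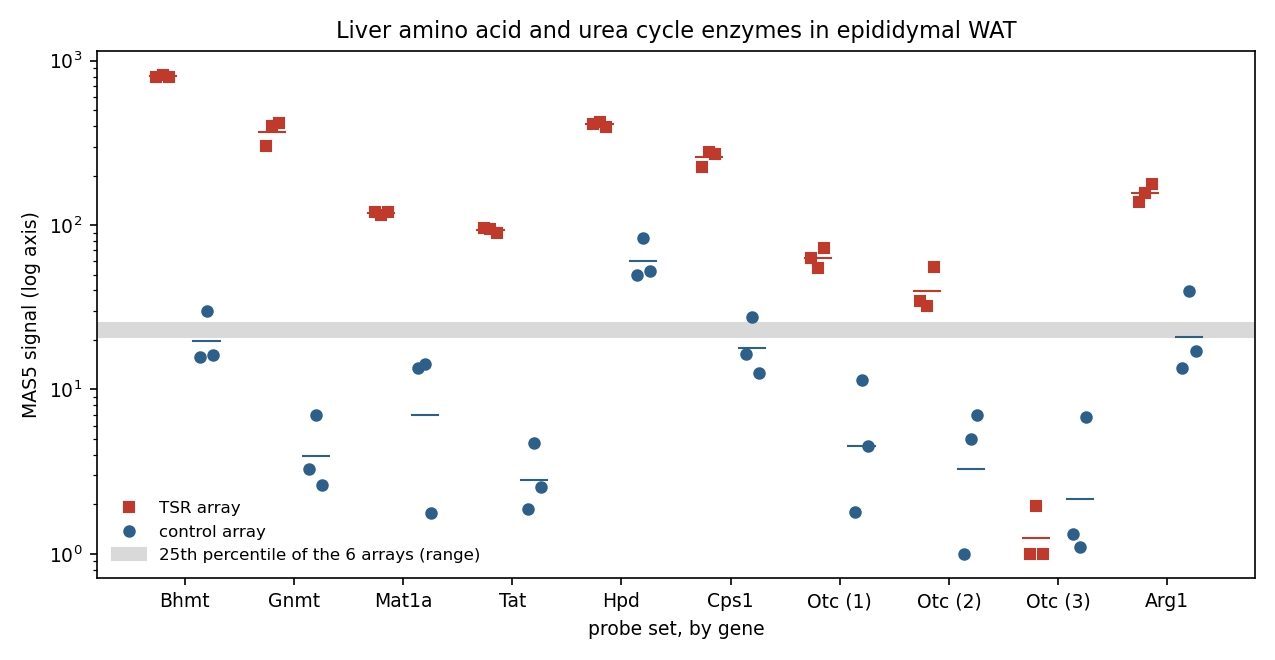
MAS5 signal (log axis) of the 10 member probe sets in 3 TSR arrays (squares) and 3 control arrays (circles), with geometric group means as lines and the range of the 6 arrays' low-signal limits (25th percentiles) as a grey band. In 9 probe sets the TSR squares lie above the band and above all control circles, and the faintest Otc probe set lies below the band in both groups.

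Across the members, every TSR array lay above every control array in 9 of 10 probe sets, against 24.0% of all 22626 probe sets that are not controls. Each of the 9 had the exact permutation p of 0.1 (two-sided), the smallest that 3 against 3 allow. In the main comparison 4 of the 10 probe sets passed the filter and all 4 (Bhmt, Hpd, Cps1 and Arg1) were called higher, where the background was 25.6%. Apart from Hpd they passed through their TSR signals, so this count is a description only. Without the filter 9 were called higher and 0 lower, where the background was 16.0% higher and 12.4% lower. All controls under the low-signal limit together with a TSR mean at least 2-fold above it was seen in 0.323% of all probe sets, and among the members in Gnmt, Mat1a, Tat and the brightest Otc probe set.

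The TSR arrays had no common order among the 9 probe sets, with replicate 1 highest in 2, replicate 2 in 3 and replicate 3 in 4. The control arrays did have one, since control replicate 2 gave the highest control signal in 8 of the 9, though many of these control signals were under the low-signal limit. Control replicate 2 was the highest control array in 33.4% of all probe sets, and in 28.2% of the 7680 with control signals in the range of the members. Without control replicate 2 the log2 fold changes of Bhmt, Cps1, Arg1 and Hpd were 5.65, 4.16, 3.38 and 3.01. Within-group spread was smaller after TSR, with CVs of 1.88% to 31.5% against 30.1% to 83.7% in control, where most signals were near the lower end of the scale.

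**Figure D2:**
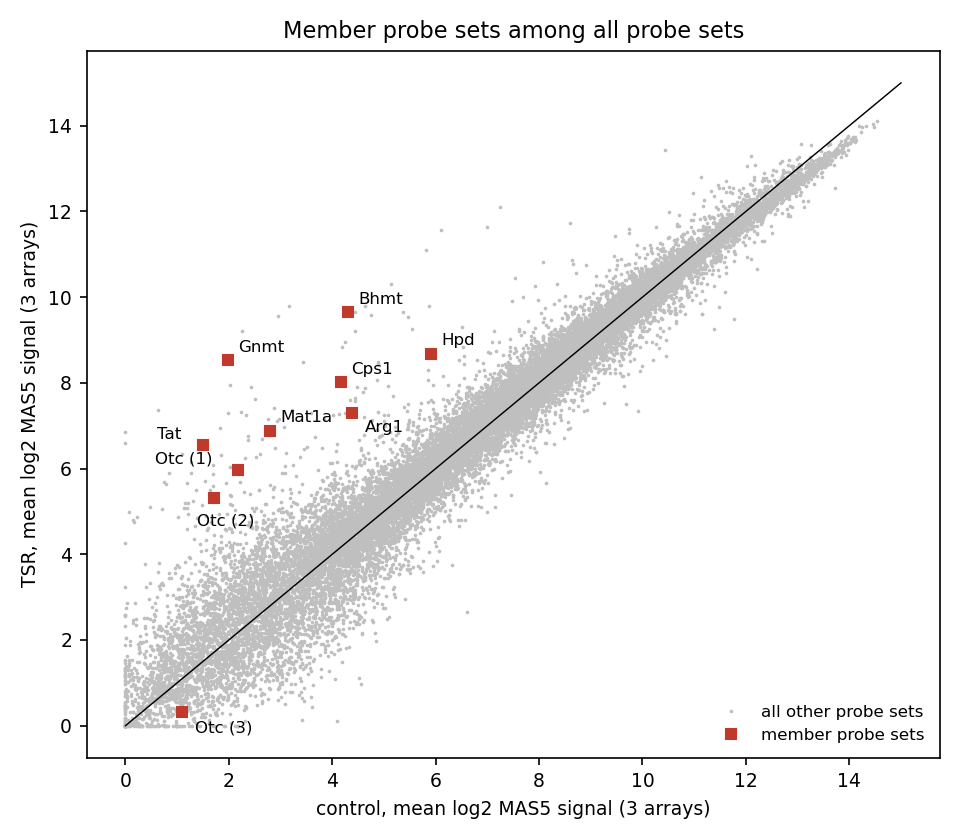
Mean log2 MAS5 signal of 3 TSR arrays (vertical axis) against that of 3 control arrays (horizontal axis) for all probe sets that are not controls (grey dots) and the 10 member probe sets (red squares), with the line of equal signal. All members but the faintest Otc probe set lie above the line, with log2 differences of 2.77 (Hpd) and 5.34 (Bhmt) among those tested.

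The paralogues and partner subunits of the members were measured as well. Bhmt2, a close relative of Bhmt, gave 19.3, 42.3 and 28.5 after TSR and 6.81, 1.34 and 8.33 in control by the probe set with the higher mean log2 signal, and was at least 1.29-fold higher. Its other probe set gave 37.0, 38.8 and 37.2 after TSR and 10.8, 1.40 and 1 in control, at least 1.70-fold higher. The probe sets of Bhmt and Bhmt2 may share sequence, which was not checked. Arg2, the arginase of tissues outside the liver, was under the low-signal limit on all 6 arrays by both probe sets. Mat2a, the S-adenosylmethionine synthetase of most other tissues, has no probe set with a single symbol. Its regulatory partner Mat2b had a mean of 1202 ± 61.6 after TSR and 1305 ± 22.1 in control (SD, n = 3 each), with a log2 fold change of -0.12 (adjusted p = 0.080 from limma). Mat2b was called lower after quantile normalization and after median centring (adjusted p = 0.037 and 0.0065 from limma).

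Of 70 genes on 4 lists of amino acid metabolism, 58 were measured, and 38 passed the filter by their brightest probe set. Of these, 18 rose and 4 fell after TSR, while 16 did not pass the test, with a median log2 fold change of 0.19. Over all 8619 genes tested, 24.0% were called higher and 23.0% lower, with a median of 0.01. Both counts depended on the scaling and the test. After median centring 12 of the 38 were higher and 10 lower, and in the equal-variance test named in the methods 12 were higher and 4 lower.

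On the list of methionine and folate metabolism, 10 of 19 tested genes rose, 2 fell and 7 did not pass, and 6 were called higher after median centring. The genes that rose most were Cbs, which starts the breakdown of homocysteine to cysteine (log2 fold change 0.88), Sardh, a sarcosine dehydrogenase gene (0.68), Cth, the next enzyme after Cbs (0.46), and Ahcy, which releases homocysteine (0.46). Gatm, which starts creatine synthesis, fell by 0.68 on the log2 scale. Nnmt, a nicotinamide methyltransferase abundant in fat, fell by 0.20, and this call was lost after quantile normalization (adjusted p = 0.081 from limma). Ahcy had mean signals of 879 ± 45.2 after TSR and 641 ± 14.8 in control (SD, n = 3 each). Ahcyl1, not called by its brightest probe set, rose by a dimmer probe set (log2 fold change 0.71, adjusted p = 3.8e-05 from limma).

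On the list of the urea cycle and ammonia handling, 4 of 12 tested genes rose, 2 fell and 6 did not pass, each by its brightest probe set. Only 1 was called lower without TSR replicate 1 or 3 or without control replicate 1 or 2. Got2, Gpt2 and Glul, among the 6, each had a dimmer probe set that rose. Those log2 fold changes were 0.80, 0.43 and 0.37 (adjusted p = 0.0013, 0.00023 and 0.00022 from limma). The brightest Glul probe set had a log2 fold change of -0.22. Asl, which encodes argininosuccinate lyase, the step before arginase, had 398, 402 and 409 after TSR and 302, 329 and 338 in control, a log2 fold change of 0.32 (standard error 0.07, adjusted p = 0.0047 from limma). Gpt, an alanine aminotransferase gene, rose to a mean of 2075 ± 76.6 after TSR, against 1088 ± 35.6 in control (SD, n = 3 each). Prodh, which starts proline breakdown, rose by a log2 fold change of 0.37. The ornithine carrier gene Slc25a15 rose by 0.20, a call lost after quantile normalization and after median centring (adjusted p = 0.13 and 0.26 from limma). Aldh18a1, which starts the synthesis of proline and ornithine from glutamate, fell by 0.72. Glud1, the glutamate dehydrogenase gene, fell by 0.13 by its brightest probe set, which was lost after quantile normalization (adjusted p = 0.076 from limma), and its other probe set differed by 0.10 (adjusted p = 0.17 from limma).

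Of the genes around Tat and Hpd, 3 of 4 tested rose and 1 did not pass, and 1 was called higher in the equal-variance test. The gene that did not pass, Qdpr, rose by its dimmer probe set (log2 fold change 0.15, adjusted p = 0.016 from limma). Fah, the last enzyme of tyrosine breakdown, was bright in both groups, at a mean of 3079.6 ± 82.6 after TSR and 2291 ± 46.2 in control (SD, n = 3 each), a log2 fold change of 0.43. Pcbd1 (0.41), which recycles the cofactor of phenylalanine hydroxylase, was not called after quantile normalization (adjusted p = 0.052 from limma), and Gstz1 (0.19), the enzyme before Fah, was not called after median centring (adjusted p = 0.34 from limma). Hgd, which acts directly after Hpd, resembled the members in its values, with 74.9, 68.8 and 85.7 after TSR and 2.19, 4.60 and 12.0 in control. It was at least 3.44-fold higher after TSR (adjusted p = 0.0025 from limma without the filter). On the list of tryptophan, histidine, serine, glycine and lysine breakdown, 3 genes passed the filter and Tdo2, the liver enzyme that starts tryptophan breakdown, rose to 151 ± 18.0 after TSR, against 64.2 ± 4.41 in control (SD, n = 3 each, log2 fold change 1.23), while Gcsh and Kmo did not pass.

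**Figure D3:**
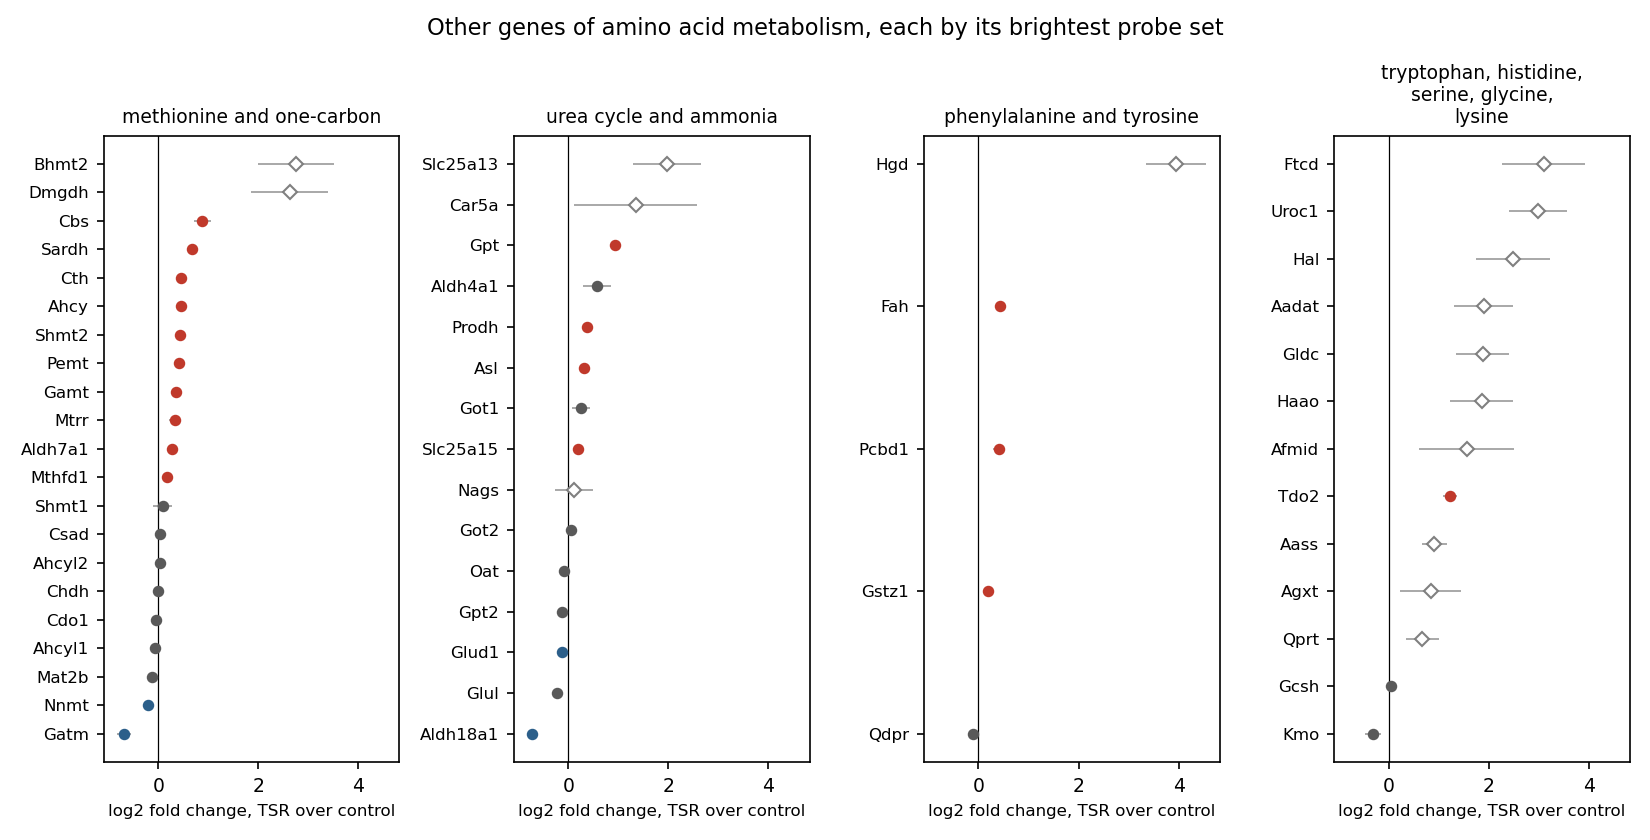
Log2 fold change of TSR over control with its standard error for genes of 4 amino acid lists, each by its brightest probe set. Filled circles passed the filter on low signals (red called higher, blue called lower, grey not called), open diamonds did not, and genes under the low-signal limit on all 6 arrays are left out. Filled circles stay between -0.72 (Aldh18a1) and 1.23 (Tdo2), below every member that passed the filter.

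Markers of cell types and organs that make some of these enzymes, or that lie in or near the fat pad, were counted as well. For hepatocytes, 19 markers were measured and 13 passed the filter, of which 12 rose and 1 fell. Over all 8619 genes tested, 24.0% were called higher and 23.0% lower. Several of the 12, such as Apoh with a control mean of 38.1, passed through their TSR signals, so this count is a description only. Fgg, Ahsg, Ambp and Fgb were under the low-signal limit in every control array. The lowest signal on every array was 1, the value of Ambp in control replicate 3. The summed signal of the list by brightest probe sets was 24616 to 28093 after TSR and 15642 to 19348 in control. Cyp2e1 makes up most of the control sum, is bright in WAT at 12455 ± 1573 after TSR and 16621 ± 1969 in control (SD, n = 3 each), and was the gene that fell (log2 fold change -0.42). This call was lost after quantile normalization. Without Cyp2e1, a choice made after the values were seen, the sum was 13761 to 14104 after TSR and 582 to 745 in control. Among the brightest markers, Alb, which encodes albumin, had a mean of 3205 ± 143 after TSR and 129 ± 31.6 in control (SD, n = 3 each). Serpina1c, an alpha-1-antitrypsin gene, had 3049 ± 185 after TSR and 69.0 ± 8.27 in control (SD, n = 3 each). By brightest probe sets, log2 fold changes of the 12 markers ran from 2.53 (Apoh) to 5.47 (Serpina1c). Those of the tested members Hpd, Arg1, Cps1 and Bhmt ran from 2.77 to 5.34. Dimmer tested marker probe sets with all controls under the low-signal limit had lower bounds of 26.7-fold (Ttr), 34.1-fold and 39.9-fold (Apoa1). The other dimmer tested marker probe sets lay within the range of the 12. Gnmt, not tested, had a bound of 16.7-fold. Hnf4a, a transcription factor of hepatocytes, gave 39.7, 32.7 and 23.8 after TSR and 45.7, 21.2 and 27.0 in control by its probe set of highest mean log2 signal (adjusted p = 0.91 from limma without the filter), and its other probe sets did not all behave alike. Another Hnf4a probe set gave 52.5, 60.8 and 75.4 after TSR and 29.3, 7.40 and 10.5 in control, with 2 control signals under the low-signal limit, and rose (adjusted p = 0.015 from limma without the filter). The remaining 2 Hnf4a probe sets were under the limit on all 6 arrays, so they gave no fold. The fainter gave 16.3, 21.6 and 19.8 after TSR and 1, 1 and 1 in control (adjusted p = 0.00044 from limma without the filter). The other gave 3.03, 17.5 and 18.0 after TSR and 9.52, 10.5 and 14.9 in control (adjusted p = 0.87 from the same fit). Most hepatocyte markers were thus higher after TSR, as the members were, apart from Cyp2e1 and the brightest Hnf4a probe set. The order of the control arrays was not the same in all markers. The part of hepatocyte markers in the differences of the members was not tested.

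Markers of other organs were mostly near the lower end of the scale. Of 35 measured markers of kidney tubule, exocrine pancreas, small intestine, and epididymis and testis, 20 were under the low-signal limit on all 6 arrays and 5 passed the filter, of which 1 rose and 1 fell. Below the filter, Adam7 of the epididymis and testis list gave 46.4, 31.8 and 35.7 after TSR and 3.68, 8.90 and 15.9 in control. It was at least 1.7-fold higher (adjusted p = 0.022 from limma without the filter). Ctrb1 and Cpb1 of the pancreas list were lower in that fit (adjusted p = 0.019 and 0.011 from limma without the filter). Cpb1 was under the limit on all 6 arrays. The brightest kidney marker, Kap, had 108 ± 13.9 after TSR and 97.9 ± 13.3 in control (SD, n = 3 each, adjusted p = 0.49 from limma), and Umod, Slc12a1, Slc12a3 and Cubn were under the limit on all arrays. Cela1, an elastase gene of the pancreas list, rose by a log2 fold change of 0.50, and Lgals4 of the intestine list fell by 0.29, with 0 called in that list without TSR replicate 2 or without control replicate 1. Summed signals were 221 to 292 after TSR and 186 to 271 in control for kidney, and 552 to 646 after TSR and 422 to 543 in control for pancreas. They were 267 to 278 after TSR and 303 to 317 in control for intestine, and 67.8 to 116 after TSR and 42.2 to 85.6 in control for epididymis and testis. Macrophage markers were lower after TSR, with 8 of 9 tested markers lower and 0 higher. Over all genes tested, 23.0% were called lower and 24.0% higher. The summed signals of the macrophage markers were 19261 to 19948 after TSR and 32099 to 35015 in control. Arg1 was higher, and the part of macrophages in its signal was not tested. Among the brightest macrophage markers, Retnla, Lyz2 and Csf1r fell by 1.17, 0.52 and 0.46 on the log2 scale, each by its brightest probe set. A dimmer Csf1r probe set fell by 0.46 as well (adjusted p = 0.0032 from limma). Another had a log2 fold change of 0.16 and was not called (adjusted p = 0.18 from limma). Of 8 adipocyte markers, each by its brightest probe set, 3 were higher and 5 lower, against the same shares over all genes. By these probe sets 0 were called lower after quantile normalization. The dimmer Fabp4 probe sets, which are not in these counts, fell by 0.42, 0.87 and 1.01 on the log2 scale. Their adjusted p was 0.0065, 2.4e-06 and 6.2e-07 from limma.

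**Figure D4:**
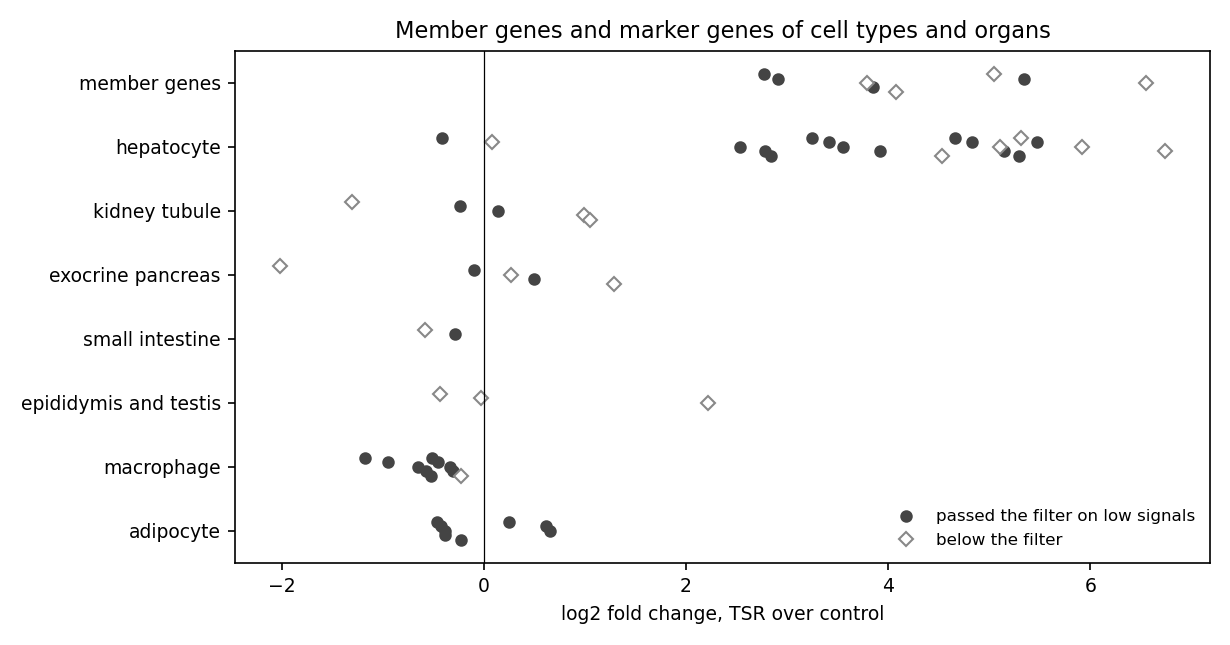
Log2 fold change of TSR over control for the 8 measured member genes and for 7 lists of marker genes, each gene by its brightest probe set. Filled circles passed the filter on low signals, open diamonds did not, and genes under the low-signal limit on all 6 arrays are left out. Member genes lie at 2.77 or above, in the range of most hepatocyte markers, and macrophage markers lie below 0.

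Signs of RNA quality also differed between the groups. For beta-actin, the log2 signal of the 5′ control probe set minus that of the 3′ one was -0.67 in each TSR array and between -1.23 and -1.20 in control arrays, and that of Gapdh was between 0.07 and 0.17 after TSR and between -0.60 and -0.48 in control. Their part in the differences of the members was not tested.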

How the data were processed

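RNA of epididymal WAT from 3 TSR and 3 control samples was hybridised to Affymetrix mouse arrays, 1 array per sample. The sample labels state frozen tissue and Trizol, whereas the methods state RNAlater and a lipid tissue kit. The deposited values are MAS5 signal intensities on a linear scale, computed by the authors with Affymetrix Expression Console (version not given in the sources used here). The mean of the middle 96% of signals was 500.0 on every array. The number of arrays limits the precision.

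Of 22690 probe sets, 64 were controls and were left out. The platform annotation gave 1 gene symbol for 20393 probe sets, several for 691 and none for 1606, and 20364 of the Entrez identifiers were found in RefSeq. Signals were taken to log2, the lowest 35% by mean over the 6 arrays were left out, and groups were compared with the moderated tests of limma (3.58.1, under R 4.3.3), whose eBayes step used an intensity trend, with Benjamini-Hochberg adjustment over all probe sets tested. Expression calls of the study were left aside. Members below the filter were taken from the same fit without it. Where every control signal was under its low-signal limit (the array's 25th percentile), the fold is a lower bound, the mean log2 TSR signal against the mean log2 limit of the control arrays. Lists were counted by the brightest probe set of each gene and had no set test.

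The genes named were the members, their paralogues, on each amino acid list the tested genes that fell and the 5 called genes with the largest change, and the 3 brightest markers of a list as far as they are given. Fah, Hgd, Mat2b, Gcsh, Kmo, Apoh, Hnf4a, Cyp2e1 and the histidine genes were also chosen with their values seen where that rule does not name them, as were the kidney markers other than Kap. So were Ctrb1, Cpb1 and the dimmer probe sets given for Got2, Gpt2, Glul, Ahcyl1, Qdpr, Ttr, Apoa1, Csf1r and Fabp4. The members and lists were chosen with earlier results of these data known. Alternatives were the equal-variance test named in the methods, limma without the trend, quantile normalization, median centring, other filters, low signals raised to the limit, leaving out each array in turn and blocking on the replicate number. The fit was tested on simulated data of 14707 probe sets. It recovered 55 of 100 changed by 0.5 and 98 of 100 changed by 2 on the log2 scale, with 3 false calls. The simulated noise was independent and held no scaling difference between arrays, and far fewer probe sets changed than were called in the data. It therefore does not cover errors from the scaling of the arrays.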

Additional observations from a re-analysis of the deposited data

Results flagged for a closer look

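The probe set annotated to Ass1 and Gm5424 together belongs to no comparison, since its signal cannot be assigned to either gene, and it drew attention because it lay above the control arrays after TSR. Its signals were 79.7, 70.6 and 101 in the TSR arrays (mean 83.9 ± 15.9, SD, n = 3), against 28.8, 3.55 and 6.20 in the control arrays (mean 12.8 ± 13.8, SD, n = 3). In limma without the filter it had adjusted p = 0.012. Of its 3 control signals, 2 were under the low-signal limit. The cause was not tested.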

How the results depend on the processing

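Of 122 values of member log2 fold changes under alternatives, 120 kept their direction and their side of the threshold and 0 were reversed. The equal-variance test on log2 signals lost the calls of Mat1a (log2 fold change 4.08) and the dimmer rising Otc probe set (3.59), which the same test on linear signals kept. Raising low signals to the 25th percentile brought the log2 fold changes of Gnmt, Mat1a, Tat and both Otc probe sets to 4.07, 2.42, 2.08, 1.51 and 0.84. Against the 35th percentile the lower bounds were 8.45 for Gnmt, 2.70 for Mat1a, 2.13 for Tat and 1.43 for the brightest Otc probe set, and the other Otc probe set had no fold. Called members numbered 9 without the filter and 1 (Hpd) with the lowest 50% left out, against 4. In the latter Bhmt, Cps1 and Arg1 were too dim to be tested. Hepatocyte markers called higher were 7 with the lowest 50% left out, against 12, where the dimmer markers were likewise no longer tested. The marker called lower (Cyp2e1) was not called in the equal-variance test on linear or log2 signals or after quantile normalization (0 in each). Genes of the amino acid lists called lower were 10 after median centring and 7 with the replicate number as a block, against 4. Whether the replicate numbers pair the samples is not known. Same-numbered samples deviated together with r of 0.02, 0.19 and 0.17, and differently numbered samples with r between -0.22 and 0.06. The block left 4 members called. The number of arrays and signals near the lower end of the scale limit all folds given as bounds.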

Other observations

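Genes of histidine breakdown, a further liver pathway of amino acids, lay below the filter, and 3 of them were higher after TSR by at least 1 probe set. Hal, which starts the pathway, gave 34.2, 36.0 and 54.1 after TSR and 17.6, 2.24 and 9.64 in control, and was at least 1.83-fold higher (adjusted p = 0.041 from limma without the filter). Uroc1, the urocanase gene, has a pair of probe sets, and the one with the higher mean log2 signal gave 45.1, 42.1 and 39.4 after TSR and 3.86, 13.1 and 2.99 in control, and was at least 1.91-fold higher (adjusted p = 0.0076 from the same fit). Its other probe set gave 19.8, 22.1 and 11.2 after TSR and 1.24, 22.6 and 1.29 in control, where the groups overlapped and the call was not made (adjusted p = 0.17 from limma without the filter). Ftcd, which ends the pathway by passing a formimino group to folate, gave 22.3, 34.3 and 25.8 after TSR and 12.1, 1.98 and 1.30 in control, and was at least 1.22-fold higher (adjusted p = 0.027 from the same fit). Apart from this other Uroc1 probe set, every TSR array lay above every control array in Hal, Uroc1 and Ftcd, and their control signals were under the low-signal limit, as was 1 TSR signal of Ftcd. Of all 22626 probe sets that are not controls, 24.0% had every TSR array above every control array. In limma without the filter 16.0% were called higher. The histidine genes were chosen with their values seen, so their number is a description only. Amdhd1, the step between Uroc1 and Ftcd, was under the limit on all 6 arrays, at 2.72, 6.51 and 10.7 after TSR and 2.09, 1 and 1 in control.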
